A study of Mus musculus with 4 samples.

Results

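The genes described here store, carry, import and export iron, or control those that do. They are the ferritin chains Fth1 and Ftl1, transferrin (Trf), the transferrin receptor (Tfrc), the importer Slc11a2, the receptor partner Hfe, the exporter Slc40a1, the ferroxidase Cp, and the RNA-binding regulators Aco1 and Ireb2. All 10 were found by gene symbol, with 65 transcripts of the 128603 in the tables, and all 10 were among the 13744 genes with a mean of at least 1 FPKM over the 4 libraries. FPKM is the number of sequenced fragments scaled by transcript length and by the size of the library, so it can be compared between genes of different length. Of the 65 transcripts, 64 were at least 200 bases long and were summed per gene.

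RNA came from mouse brains of 4 groups, all labelled wild type. F1r was the hybrid CAST/EiJ x C57BL/6, F1i the hybrid C57BL/6 x CAST/EiJ, CAST the inbred CAST/EiJ strain, which descends from wild Mus musculus castaneus, and B6 the standard laboratory strain C57BL/6. The labels state neither which parent of a hybrid was the dam nor an age or sex. Left hemispheres of 5 mice went into 1 pooled library per group, although the series design names whole brain, so no value has a replicate error and no test was possible. All 10 pan-neuronal markers had a mean of at least 1 FPKM, and their summed level was 2212 FPKM in F1r, 2154 in F1i, 2036 in CAST and 2131 in B6. Depth, estimated from the lowest values of long transcripts, was 0.696 to 0.770 of that of B6 in the other 3 libraries.

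Ferritin is a hollow shell of heavy (Fth1) and light (Ftl1) chains that keeps iron in a safe, soluble form, and in brain it is abundant in oligodendrocytes and microglia. Transferrin carries iron between cells, enters through the transferrin receptor, and releases its iron inside the endosome, from which Slc11a2 moves it to the cytosol. When iron is scarce, the proteins encoded by Aco1 and Ireb2 bind hairpins called iron-responsive elements in these RNAs, which blocks translation when the hairpin lies before the coding sequence and protects the RNA when it lies after it.

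The hairpins are shown because they sort the genes into these classes of control. A search of the GENCODE M21 transcripts (build GRCm38) on the transcript strand for C, any 5 bases, CAGTG and any further base, with at least 4 of 5 stem bases paired, found a match in 5 of the 10 genes. The same search matched 3604 of 55450 annotated genes (6.50%), over transcripts of any length, so a match alone describes letters and not a working element. In each site of 30 bases, written 5′ to 3′, capitals mark the bulged C and the loop. The first 3 lie in the 5′ UTR, at chr19:9982730-9982759 (+), chr7:45459780-45459809 (−) and chr1:45925466-45925495 (−).
Fth1: gtttcctgCttcaaCAGTGCttgaacggaa
Ftl1: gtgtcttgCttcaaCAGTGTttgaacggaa
Slc40a1: tccaacttCagctaCAGTGTtagctaagtt

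The Ftl1 site differed from that of Fth1 at 3 of 30 bases and from that of Slc40a1 at 17. Matches in the 3′ UTR were found in Tfrc, with 4 sites on the + strand at chr16:32631217-32631246, chr16:32631596-32631625, chr16:32631661-32631690 and chr16:32631708-32631737, and in Slc11a2 at chr15:100395154-100395183 (−).
Tfrc site 1: ataattatCggaagCAGTGCcttccataat
Tfrc site 2: cacattatCgggagCAGTGTcttccataat
Tfrc site 3: gtctatatCggagaCAGTGAtctccatatg
Tfrc site 4: gtaattatCgggaaCAGTGTttcccataat
Slc11a2: ggagccatCagagcCAGTGTgtttctatgg

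The Slc11a2 site had 4 of 5 stem bases paired, and all other printed sites had 5. No match was found for Trf, Hfe, Cp, Aco1 or Ireb2.

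Fth1 was the most abundant of the 10 genes in every library and Tfrc the fourth. In F1r, F1i and B6, Ftl1 ranked above Trf behind Fth1, whereas in CAST Trf ranked above Ftl1. The plot of the values by gene shows the CAST library well below the others for Ftl1 and Trf.

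**Figure D1:**
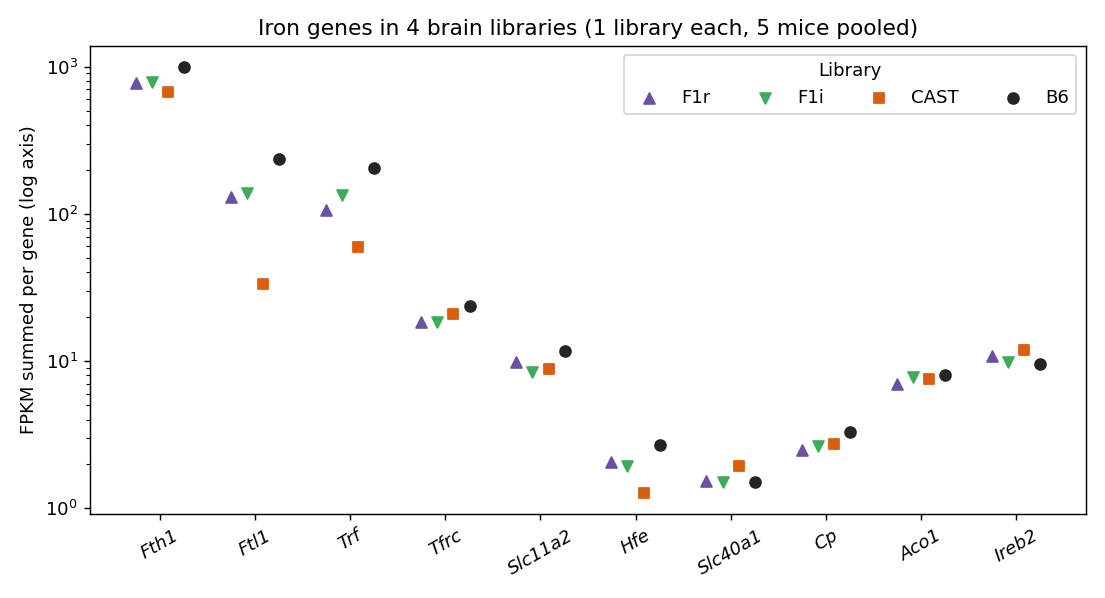
FPKM summed per gene (log axis) for the 10 iron genes in the F1r, F1i, CAST and B6 libraries, 1 point per library. CAST lies lowest for Ftl1 at 33.3 FPKM and for Trf at 59.4 FPKM, with both hybrids between CAST and B6, while the other 8 genes lie closer together.

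Between CAST and B6, 2 of the 10 genes were at least 2-fold apart on the log2(FPKM + 1) scale, Ftl1 and Trf, both lower in CAST. Over all 13744 genes, 5.08% were at least 2-fold apart, with 2.83% higher and 2.25% lower in CAST. The differences of the other 8 genes ran between -0.69 and 0.28. The median of the 10 was -0.29, beside 0.04 for all genes, whose standard deviation over genes was 0.56. In value, 8 of the 10 were lower in CAST and 2, Ireb2 and Slc40a1, were higher, a split of 5 and 5 once every library was rescaled to the same total FPKM, which moved the median of all genes to 0.34. Adding 1 to FPKM understates the change of low genes.

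**Figure D2:**
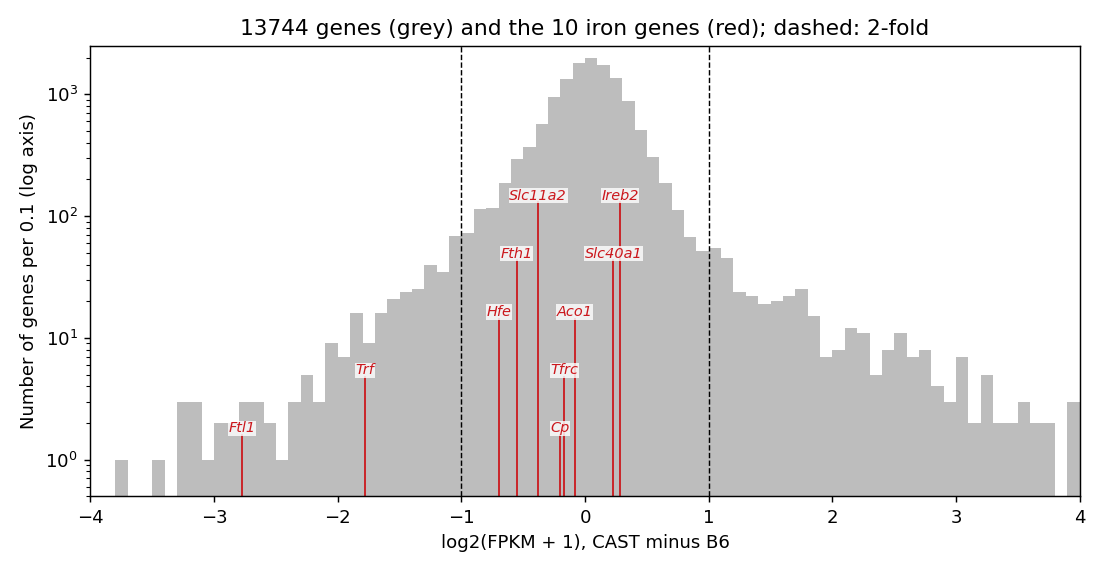
Difference in log2(FPKM + 1), CAST minus B6, for the 13744 genes (grey bars of width 0.1, counts on a log axis), with the 10 iron genes as red lines whose height has no meaning and dashed lines at 2-fold. Ftl1 at -2.78 and Trf at -1.78 lie left of the dashed line at -1, and the axis leaves out 5 genes below -4 and 30 above 4.

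Among the stores, Fth1 encodes the heavy chain, whose ferroxidase centre oxidises iron on entry (chr19:9982703-9985092, + strand). It was at 771 FPKM in F1r, 788 in F1i, 675 in CAST and 992 in B6. B6 was the highest and CAST the lowest, with both hybrids between them. The CAST minus B6 difference of -0.55 was short of 2-fold, and 6.64% of all genes had a lower one. With every library rescaled to the same total FPKM the difference was -0.21, and F1i was the lowest instead of CAST.

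Ftl1 encodes the light chain, which helps the iron core to form (chr7:45457944-45459884, − strand). It was at 131 FPKM in F1r, 138 in F1i, 33.3 in CAST and 234 in B6. The hybrids were close to each other and to the parental mean of 134 FPKM, their own mean being 135 FPKM. By the ratio of FPKM, Ftl1 was 7.02-fold lower in CAST. On the log2(FPKM + 1) scale the difference was -2.78, and 20 of the 13744 genes had a lower one. On the scale where B6 is 0 and CAST is 1, F1r stood at 0.513 and F1i at 0.478. The ratio of heavy to light chain RNA was 5.88 in F1r, 5.71 in F1i, 20.3 in CAST and 4.24 in B6, so CAST stood apart from the other 3 libraries.

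Nearly all Ftl1 signal was in the coding transcript Ftl1-201, with 129 FPKM in F1r, 135 in F1i, 32.6 in CAST and 230.2 in B6. A transcript with a retained intron, Ftl1-205, was at 0.79 FPKM in F1r, 1.83 in F1i, 0.501 in CAST and 2.55 in B6, so it too was lowest in CAST. Fth1 had a single transcript in the tables.

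Ferritin genes have near-identical copies elsewhere in the genome, and reads from them cannot be told apart where the sequence is the same. Of the 31-base words of all Ftl1 transcripts in GENCODE M21, 57.7% also occurred in transcripts of 30 other genes, against 3.24% for Fth1. For Fth1 this was 116 of 3578 words, over more transcripts than the 1 that was measured. The share of that transcript alone was not computed, so the 2 percentages are not measures of the deposited FPKM. The closest copy was Ftl1-ps1 on chromosome 13 (chr13:74399694-74407346, + strand), which GENCODE M21 annotates with a protein-coding transcript and which held 756 of the 1389 words. The coding sequences of Ftl1 and Ftl1-ps1 have 549 bases each and differ at 2, an identity of 99.6%. Bases 415 to 504 of each, counted from the start codon, are printed because both differences fall there, in capitals. The coding sequences span chr7:45458110-45459631 (−, with introns) and chr13:74406604-74407152 (+), from GENCODE M21.
Ftl1: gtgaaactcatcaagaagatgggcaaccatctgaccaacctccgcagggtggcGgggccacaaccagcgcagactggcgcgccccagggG
Ftl1-ps1: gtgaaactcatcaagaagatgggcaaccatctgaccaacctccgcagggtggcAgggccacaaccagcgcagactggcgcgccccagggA

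Ftl1-ps1 also carried the hairpin printed for Ftl1, identical at all 30 bases (chr13:74406426-74406455, +). Its FPKM ran the other way across the parents, with 16.2 in F1r, 21.9 in F1i, 22.7 in CAST and 3.70 in B6. Within it, transcript Ftl1-ps1-202 was at 12.1 FPKM in F1r, 15.2 in F1i, 17.2 in CAST and 0.00048 in B6, so in B6 it was at the bottom of the scale. A transcript of 922 bases, not found in GENCODE M21, was at 4.10 FPKM in F1r, 6.74 in F1i, 5.57 in CAST and 3.70 in B6.

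The remaining copies were low. Gm15590 was at 1.38 FPKM in F1r, 1.15 in F1i, 1.22 in CAST and 0.703 in B6, and the Fth1 copy Gm6977 on the X chromosome at 3.58, 3.55, 3.32 and 3.39 FPKM in F1r, F1i, CAST and B6. Any gene with FPKM values that shared at least 1 of the 31-base words was counted as a copy, so some copies share little. Gm9230 shared 1 word of Ftl1. Of the 14 Ftl1 copies 6 were listed at 0 in every library, and of the 3 Fth1 copies 1 was.

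To set the copies beside their source, FPKM times length was summed over each gene and its copies and divided by the length of the gene's main transcript. For Ftl1 the sum was 147 in F1r, 159.8 in F1i, 56.3 in CAST and 237 in B6, so CAST was still the lowest and B6 the highest. The copies made up 11.4% of it in F1r, 13.97% in F1i, 41.1% in CAST and 1.71% in B6. Summed this way, the level was 4.21-fold lower in CAST, against 7.02-fold for Ftl1 alone, and the CAST minus B6 difference was -2.06 on the log2 scale with 1 added. Between the parents, Ftl1 itself was 200.2 lower in CAST on this scale and the copies were 19.1 higher. How reads of each strain were divided between Ftl1 and its copies was not tested, so the 7.02-fold and 4.21-fold ratios hold only for the deposited FPKM. The same limit holds for the heavy to light chain ratios and the hybrid positions above, which used Ftl1 without its copies. For Fth1 the copies made up 0.265% to 0.345%, and the difference remained -0.55.

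**Figure D3:**
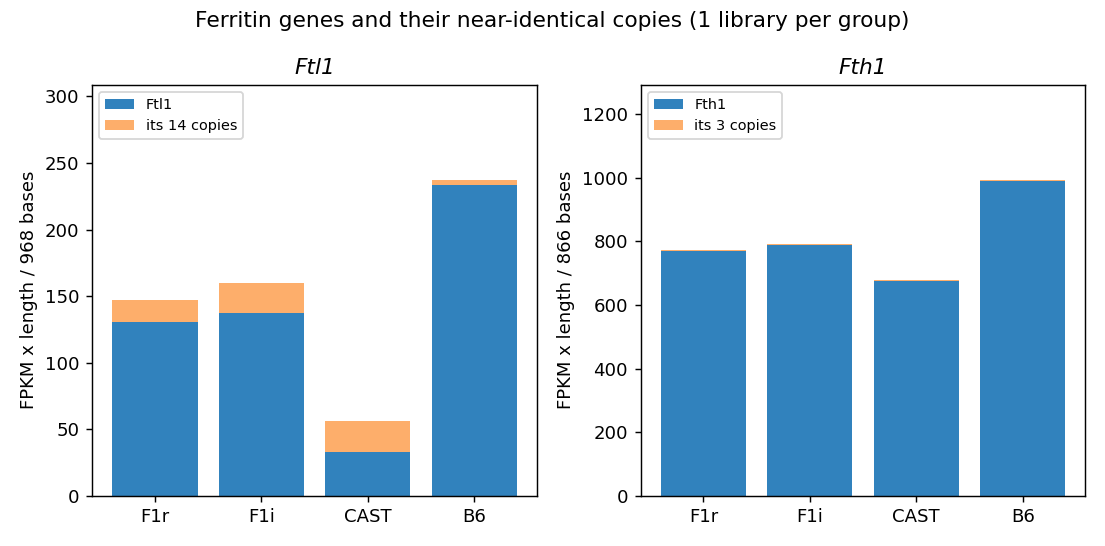
FPKM times length, divided by the length of the main transcript (968 bases for Ftl1, 866 for Fth1), for each ferritin gene (blue) and its annotated copies (orange, stacked), 1 bar per library in the order F1r, F1i, CAST and B6. The copies reach 41.1% of the Ftl1 bar in CAST and 1.71% in B6, and are barely visible for Fth1.

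Trf encodes transferrin, which in brain is made mainly by oligodendrocytes and the choroid plexus (chr9:103204001-103230444, − strand). It was at 106 FPKM in F1r, 134 in F1i, 59.4 in CAST and 206 in B6. CAST was the lowest and B6 the highest, and the hybrids lay between them with F1r below F1i. By the ratio of FPKM it was 3.48-fold lower in CAST. The log2(FPKM + 1) difference was -1.78, and 71 of the 13744 genes had a lower one. F1r stood at 0.684 of the way to CAST and F1i at 0.494.

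The transcripts of Trf did not keep the same shares. The long coding transcript Trf-201 (2571 bases) was at 85.9 FPKM in F1r, 108 in F1i, 57.3 in CAST and 149 in B6, and was 2.60-fold lower in CAST. The short transcript Trf-206 (563 bases) was at 19.3 FPKM in F1r, 22.9 in F1i, 1.251 in CAST and 54.3 in B6, and was 43.4-fold lower in CAST. Trf-206 therefore held 18.2% of the Trf sum in F1r, 17.1% in F1i, 2.11% in CAST and 26.3% in B6. Of its 533 words of 31 bases, 510 also occur in Trf-201, and 23 do not. How shared reads were divided between these transcripts was not tested, so the 43.4-fold ratio and the shares hold only for the deposited FPKM. With Trf-201 alone the CAST minus B6 difference was -1.36.

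Trf also shares 2050 of its 3384 words with the read-through gene Gm20425 on the same strand. That gene was at 0.645 FPKM in F1r, 0.372 in F1i, 1.99 in CAST and 0.286 in B6, so it was highest where Trf was lowest, at a small part of the Trf level.

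Markers of oligodendrocytes and choroid plexus, but also those of microglia, were mostly lower in value in CAST, as Trf was. The summed level of 14 oligodendrocyte markers was 1727 FPKM in F1r, 1887 in F1i, 1380.3 in CAST and 2279 in B6. All 14 were lower in value in CAST, with a median difference of -0.68, and 4 were at least 2-fold lower, Mobp, Mal, Cldn11 and Opalin, which belong to myelin or to myelinating cells, against 2.25% of all genes. The 10 choroid plexus markers summed to 553 FPKM in F1r, 660.5 in F1i, 401 in CAST and 655 in B6. Of the 9 with a mean of at least 1 FPKM, all were lower in value in CAST (median -0.53), and 1, Kl, was at least 2-fold lower. The 12 microglial markers summed to 186 FPKM in F1r, 211 in F1i, 175 in CAST and 256 in B6, with 11 lower in value in CAST (median -0.56) and none at least 2-fold apart. On the common total, the medians of these 3 lists were still below 0, at -0.35, -0.24 and -0.25 for oligodendrocyte, choroid plexus and microglial markers, with 12 of 14, 9 of 9 and 9 of 12 lower in value. There 2 oligodendrocyte markers and 0 choroid plexus markers were at least 2-fold lower, with 176 of 13794 genes in all.

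The 10 astrocyte markers summed to 1041 FPKM in F1r, 1093 in F1i, 1078 in CAST and 1134 in B6 (median 0.13), and the 9 endothelial markers with a mean of at least 1 FPKM had a median of -0.05. The pan-neuronal median was -0.14, with 8 of 10 markers also lower in value in CAST, but 0 of 10 on the common total. That of 7 blood cell markers was -0.29, with 3 higher and 4 lower in value in CAST. The haemoglobin genes Hba-a2 and Hbb-bt were at least 2-fold lower in CAST, against 2.25% of all genes, while Hba-a1 was higher in value, at 0.35. Sequence shared among the haemoglobin genes was not computed, and how reads were divided among them was not tested. On the common total, the astrocyte, endothelial, pan-neuronal and blood cell medians were 0.48, 0.28, 0.19 and -0.03. The median of all genes was 0.34 there. No marker of any of the cell type lists was at 0 in all 4 libraries. The part of these cell types in the Trf and ferritin differences was not tested, and in bulk RNA fewer cells of a type and less RNA per cell cannot be told apart.

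Tfrc encodes the transferrin receptor, the entry point for transferrin-bound iron (chr16:32608920-32632794, + strand). It was at 18.3 FPKM in F1r, 18.3 in F1i, 20.9 in CAST and 23.6 in B6. Both hybrids lay below both parents. The CAST minus B6 difference was -0.17, and none of its words occurred in another gene. The ratio of Trf to Tfrc RNA was 5.78 in F1r, 7.31 in F1i, 2.84 in CAST and 8.74 in B6, lowest in CAST.

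The full-length transcript Tfrc-201, which carries the 4 hairpins printed above, was at 11.9 FPKM in F1r, 13.3 in F1i, 12.02 in CAST and 16.1 in B6. Tfrc-204, annotated with a retained intron and also holding the hairpins, was at 3.69 FPKM in F1r, 3.30 in F1i, 5.75 in CAST and 5.44 in B6. The order of the libraries thus differed between these transcripts, with CAST near F1r for the coding one and near B6 for the other.

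Slc11a2 encodes the divalent metal transporter that moves iron out of endosomes (chr15:100387898-100425072, − strand). It was at 9.83 FPKM in F1r, 8.43 in F1i, 8.81 in CAST and 11.8 in B6. B6 was highest, and F1i was below both parents. On the common total, F1r was highest instead. The CAST minus B6 difference was -0.38.

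Its main transcripts differ in the hairpin. Slc11a2-205 (4415 bases), which has the hairpin printed above, was at 6.99 FPKM in F1r, 5.99 in F1i, 5.71 in CAST and 7.44 in B6. Slc11a2-201 (3025 bases), which has none, was at 2.08 FPKM in F1r, 1.89 in F1i, 2.198 in CAST and 2.37 in B6. Of the sum of both, the form with the hairpin made up 77.1% in F1r, 76.1% in F1i, 72.2% in CAST and 75.8% in B6, so the form with the hairpin was the larger in every library. A transcript annotated for nonsense-mediated decay, Slc11a2-204, was at 0.0635 FPKM in F1r, listed at 0 in F1i and CAST, and at 1.02 in B6.

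**Figure D4:**
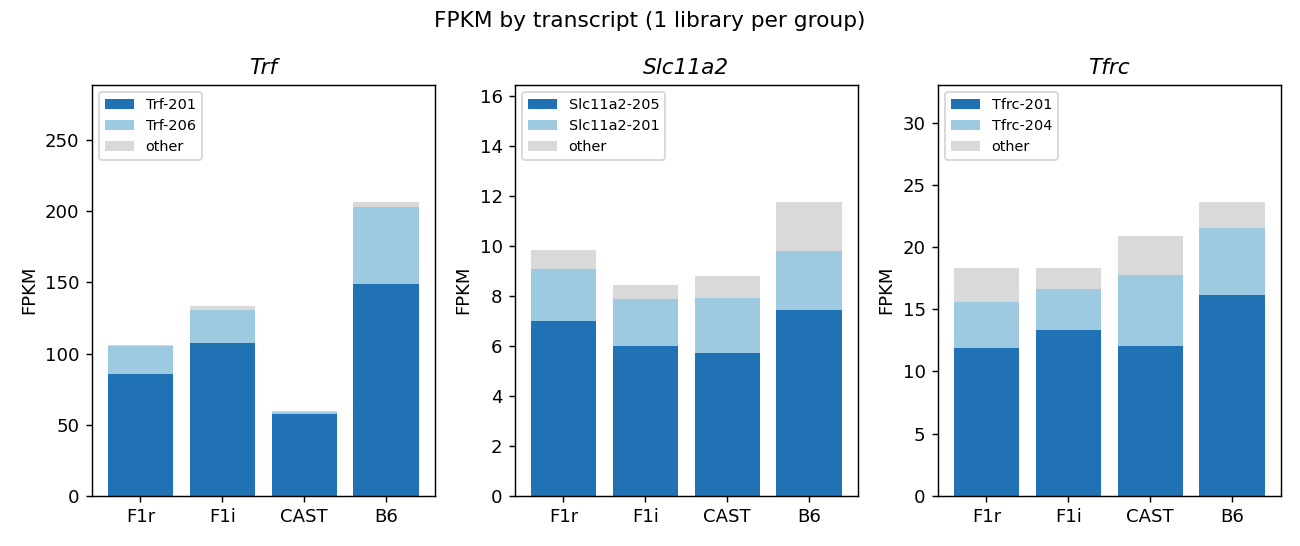
FPKM by transcript for Trf, Slc11a2 and Tfrc, with the 2 most abundant transcripts in dark and light blue and the others in grey, stacked to the gene's sum, 1 bar per library in the order F1r, F1i, CAST and B6. The light blue part, Trf-206, is 2.11% of the Trf bar in CAST and 26.3% in B6, while both main transcripts of Slc11a2 and Tfrc are present in all 4 bars.

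Hfe encodes a class I-like protein that binds the transferrin receptor and takes part in iron sensing (chr13:23702034-23710854, − strand). It was at 2.06 FPKM in F1r, 1.93 in F1i, 1.27 in CAST and 2.67 in B6. CAST was lowest, B6 highest and both hybrids between, at positions 0.435 for F1r and 0.532 for F1i. The F1r position was 0.159 on the common total and 0.187 with the most abundant transcript alone. The ratio of B6 to CAST was 2.10, but on the log2(FPKM + 1) scale the difference was -0.69. With 0.1 added instead of 1 it was -1.01, past 2-fold. Its main transcript Hfe-202 stood at 56.9 to 130 times the estimated worth of 1 fragment.

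Slc40a1 encodes ferroportin, the cell's iron exporter (chr1:45908068-45926523, − strand). It was at 1.52 FPKM in F1r, 1.498 in F1i, 1.93 in CAST and 1.50002 in B6. CAST was highest, and the other 3 libraries were nearly level. It was the lowest of the 10 genes in every library but CAST, where Hfe was lower. The CAST minus B6 difference was 0.23, and its main transcript Slc40a1-201 was at 1.255 FPKM in F1r, 1.28 in F1i, 1.63 in CAST and 1.42 in B6.

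Cp encodes ceruloplasmin, the copper ferroxidase that works with ferroportin and that astrocytes carry as a membrane-anchored form (chr3:19957054-20009145, + strand). It was at 2.49 FPKM in F1r, 2.65 in F1i, 2.71 in CAST and 3.28 in B6. B6 was highest and the hybrids were below both parents, with a CAST minus B6 difference of -0.21. Of its 16 listed transcripts, 8 had a mean above 0.1 FPKM over the libraries. Cp-201 was at 0.812 FPKM in F1r, 1.19 in F1i, 0.879 in CAST and 1.69 in B6, and Cp-202 at 0.819, 0.433, 0.134 and 0.783 FPKM in F1r, F1i, CAST and B6. Cp overlaps Hps3 on the opposite strand, which was at 6.80 FPKM in F1r, 6.11 in F1i, 7.80 in CAST and 5.46 in B6. The library kit kept the strand, but no source used here says whether counting did.

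The regulators varied little. Aco1 encodes cytosolic aconitase, which becomes an RNA-binding regulator when it loses its iron-sulfur cluster (chr4:40143081-40198338, + strand). It was at 6.94 FPKM in F1r, 7.81 in F1i, 7.54 in CAST and 8.05 in B6, with a CAST minus B6 difference of -0.08. B6 was highest and F1r lowest, but on the common total CAST was highest and F1i lowest.

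Ireb2 encodes the partner regulator that is degraded when iron is plentiful (chr9:54863789-54912530, + strand). It was at 10.8 FPKM in F1r, 9.82 in F1i, 11.9 in CAST and 9.61 in B6, with a CAST minus B6 difference of 0.28. CAST was highest and B6 lowest, the reverse of both ferritin chains. On the common total, the differences of Tfrc, Cp and Aco1 changed sign, to 0.16, 0.05 and 0.22, still below the median of all genes there. Ftl1 and Trf remained at least 2-fold lower.

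F1r and F1i are the same cross in its opposite directions. None of the 10 genes was at least 2-fold apart between F1r and F1i, where 0.495% of all genes were (0.233% with F1r higher, 0.262% with F1r lower). The F1r minus F1i differences ran between -0.33 and 0.20 with a median of -0.02, beside 0.03 for all genes with a standard deviation of 0.27. In value 5 were higher and 5 lower in F1r, but 9 and 1 on the common total, where the median of all genes was 0.27. Trf had the lowest difference, -0.33, and Slc11a2 the highest, 0.20.

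Around Trf, the oligodendrocyte markers had a median of -0.15 between F1r and F1i, with 12 of 14 lower in value in F1r (3 of 14 on the common total). Microglial markers had a median of -0.15 with 12 of 12 lower, and choroid plexus markers one of -0.13 with 7 of 9 lower, but 3 of 12 and 0 of 9 on the common total. The part of these cells in the Trf difference, which was -0.06 on the common total, was not tested. Blood cell markers, which include haemoglobin RNA, summed to 333 FPKM in F1r, 510.1 in F1i, 345 in CAST and 520.3 in B6, and their median F1r minus F1i difference was -0.64, or -0.37 on the common total. Of the 7 with a mean of at least 1 FPKM, 5 were lower in value in F1r. S100a8 and S100a9, genes of neutrophils, were at least 2-fold higher there, against 0.233% of all genes.

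Against the parents, the hybrids showed no gene of the 10 at least 2-fold apart, where 0.371% of all genes were, 0.276% higher and 0.0946% lower in the hybrids. The mean log2 of the hybrids minus that of the parents had a median of -0.07 over the 10, with 3 higher and 7 lower in value. F1r lay between the parents for 7 of the 10, F1i for 6, and both for 5. The share of all genes lying between the parents was not computed, nor were these counts repeated on the common total. Ftl1 had the highest difference, 0.59, and Tfrc the lowest, -0.27. A mean of logs lies below the log of a mean when the parents are far apart, and with the log2 of the mean FPKM instead Ftl1 was at 0.01.

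Other genes of iron and heme handling gave the surroundings. Of 45 listed, 42 were in the tables and 34 had a mean of at least 1 FPKM, while Ftmt (mitochondrial ferritin) and Hamp (hepcidin, the liver hormone that closes ferroportin) were listed at 0 in all 4 libraries. None of the 34 was at least 2-fold apart in any of the 3 comparisons. Of all genes, 5.08% were between CAST and B6, 0.495% between F1r and F1i, and 0.371% between hybrids and parents. Among 34 genes, a count of none lies near these shares. Between CAST and B6 their median was -0.08, with 16 higher and 18 lower in value, or 27 and 7 on the common total with a median of 0.21. It was 0.00 in the other comparisons.

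The 8 with the largest CAST minus B6 differences are named here. Tfr2, a second transferrin receptor, was at 2.34 FPKM in F1r, 2.22 in F1i, 3.46 in CAST and 1.57 in B6, a difference of 0.80, which passed 2-fold with 0.1 added instead of 1 and after rescaling to the same total. Blvrb, a biliverdin reductase, was at 6.85 FPKM in F1r, 6.78 in F1i, 8.46 in CAST and 5.48 in B6 (0.54). These were the 2 of the 8 that were higher in CAST.

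The other 6 were lower in CAST. Tmem14c, which moves heme precursors in mitochondria, was at 21.2 FPKM in F1r, 22.2 in F1i, 15.8 in CAST and 28.1 in B6 (-0.79). Bmp6, the signal that raises hepcidin in liver, was at 2.25, 2.50, 1.56 and 2.89 FPKM in F1r, F1i, CAST and B6 (-0.60). Hscb, a co-chaperone of iron-sulfur cluster assembly, differed by -0.53. Of the genes that break down heme, Hmox2 differed by -0.46, Blvra by -0.38 and Hmox1 by -0.38, whereas Blvrb was higher in CAST, as given above. All of these 6 had both hybrids between the levels of the parents, a count for which no share of all genes was computed.

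**Figure D5:**
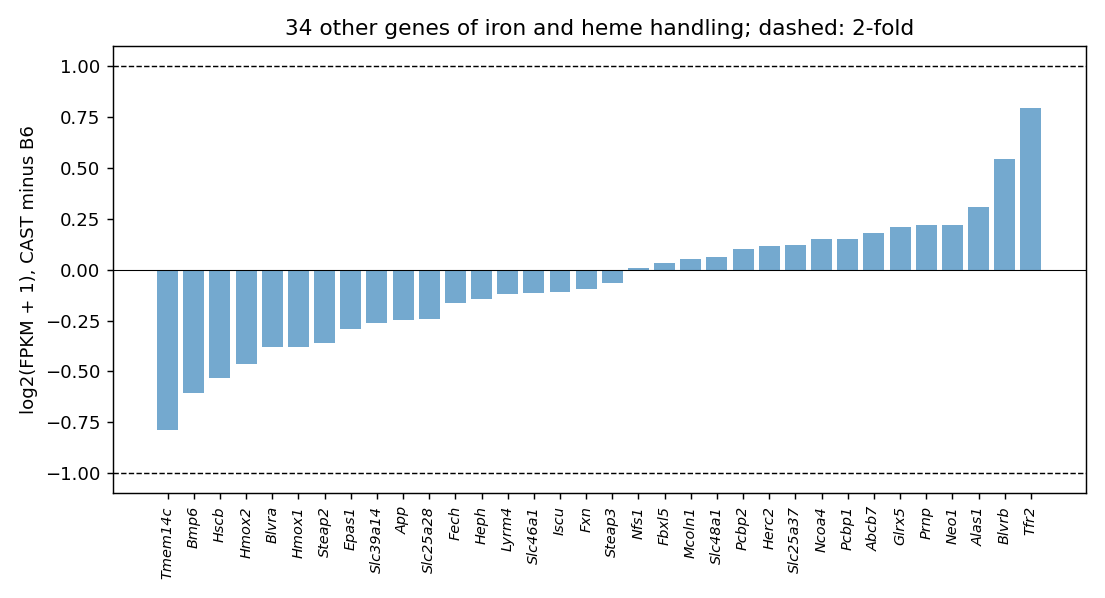
Difference in log2(FPKM + 1), CAST minus B6, for the 34 other iron and heme genes with a mean of at least 1 FPKM, sorted, with dashed lines at 2-fold. Every bar lies between the lines, the lowest being Tmem14c at -0.79 and the highest Tfr2 at 0.80.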

How the data were processed

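The authors deposited 1 table of FPKM per transcript for each of 4 libraries, with gene symbol, locus and length. Per the labels' protocols, total RNA went into a strand-specific kit. The submitters' processing notes list Cufflinks 2.2.1, Cuffdiff, HISAT2, Trimmomatic 0.36 and bcl2fastq 2.20, with build mm9. The deposited loci match GRCm38 instead, since 127971 of 128603 transcript IDs (99.5%) were in GENCODE M21 and 124348 of these (97.2%) had the same chromosome, start and end there, so coordinates here are GRCm38. The use of strand in counting, the handling of reads with several matches and any use of a CAST genome were not given in the sources consulted. The tables carry FPKM and no fragment counts, so intervals and detection limits were not computed.

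Transcripts of at least 200 bases, without small RNA names, were summed per gene, and 13744 genes with a mean of at least 1 FPKM were compared as differences of log2(FPKM + 1). Each group had 1 library, so genes at least 2-fold apart were counted without a test. Positions between the parents were (F1 - B6)/(CAST - B6) on FPKM, for genes whose parents were at least 1.5-fold apart. Shared sequence was the percent of a gene's 31-base words found in transcripts of other genes in GENCODE M21. Relative depth came from long transcripts whose low values sat at the worth of 1 fragment (246 to 293 per library).

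The genes, lists and comparisons were chosen with earlier results of these data known. All 10 genes were named, as were the 8 other iron genes with the largest CAST minus B6 differences, the ferritin copies with a mean of at least 1 FPKM, and the 5 genes with a mean of at least 10 FPKM whose profile lay nearest to that of Ftl1, passing over names of the form Gm plus digits or ending in Rik. Marker genes at least 2-fold apart, the transcripts, Gm20425 and Hps3 were picked once their values were known. The alternatives were another pseudocount, other filters, 2 scalings, single or protein-coding transcripts and the ferritin sum with copies, and, added after seeing the data, a length-weighted sum, the log2 of mean FPKM, and Trf summed with Gm20425. Steps were tested on simulated data and ran in Python 3.11.15 with numpy 2.4.6, pandas 2.3.3 and matplotlib 3.10.9.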

Additional observations from a re-analysis of the deposited data

How the results depend on the processing

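Across the alternatives the CAST minus B6 difference of Ftl1 ran between -2.82 and -2.06, the smallest in size being the sum with its copies, and that of Trf between -1.82 and -1.36, so both stayed at least 2-fold lower in every setting. With a pseudocount of 0.1, Hfe passed as well (-1.01) and 3 genes were lower. The number of other iron genes at least 2-fold higher in CAST was 1 instead of 0 with a pseudocount of 0.1 and after rescaling to a common total, Tfr2 in both. Rescaling also moved the position of F1r between the parents for Hfe to 0.159, beside 0.435 as reported. The median of the 10 genes was then -0.01 for CAST minus B6 and 0.22 for F1r minus F1i, beside medians of all genes of 0.34 and 0.27. Of 13794 genes, 592 were then higher and 176 lower in CAST, beside 389 and 309 of 13744 as reported. A pseudocount of 0.1 gave 570 and 491, and protein-coding transcripts alone 114 and 233 of 11986. With a mean of at least 5 FPKM, 7 of the 10 genes were left and 211 genes were higher and 155 lower. For the hybrids against the parents, log2 of mean FPKM gave 6 genes higher and 15 lower, beside 38 and 13. No result changed sign while past 2-fold. No paired analysis was possible because each group was 1 library and the labels carry no replicate numbers. With 1 library a group and unknown absolute depth, differences below 2-fold in Hfe, Slc40a1 and Cp, at 1.27 to 3.28 FPKM, have no error to be read against.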

Other observations

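The 5 genes whose profile over the 4 libraries lay nearest to that of Ftl1, among 6012 with a mean of at least 10 FPKM, were Cox7a2l, Ndufs5, Usmg5, Hist1h4m and Rpl21, at distances of 0.0260 to 0.392 on the centred log2 scale. Over 4 libraries such a likeness is a description. Cox7a2l, a factor of respiratory supercomplexes, was at 70.5 FPKM in F1r, 73.3 in F1i, 17.2 in CAST and 126 in B6. Ndufs5, a subunit of complex I, was at 100.1 FPKM in F1r, 98.8 in F1i, 28.4 in CAST and 183 in B6. Usmg5, a small protein of the ATP synthase, was at 177 FPKM in F1r, 191.5 in F1i, 55.3 in CAST and 361 in B6.

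Some of these genes, like Ftl1, have a close copy whose FPKM ran the other way. Gm6969 shares 16.6% of the 31-base words of Cox7a2l and was at 48.7 FPKM in F1r, 50.7 in F1i, 80.02 in CAST and 18.2 in B6. BC002163 shares 26.5% of the words of Ndufs5 and was at 39.5 FPKM in F1r, 36.7 in F1i, 68.8 in CAST and 3.62 in B6. In both pairs the gene was lowest and its copy highest in CAST, with the hybrids between the parents.

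For the other 3 genes, the copy sharing the most words among genes with a mean of at least 1 FPKM was looked at. The rest were not. Hist1h4m, a histone H4 gene, shares 91.7% of its words with Hist1h4n, which was at 59.6 FPKM in F1r, 53.8 in F1i, 36.7 in CAST and 68.3 in B6, lowest in CAST as Hist1h4m was (8.32 FPKM in CAST and 84.1 in B6). Rpl21, a ribosomal protein gene, was at 24.5 FPKM in F1r, 27.9 in F1i, 4.15 in CAST and 48.3 in B6 and shares 11.4% of its words with Gm10240, which was at 0.580 FPKM in CAST and 2.205 in B6. Usmg5 shares words with 1114 genes, at most 2.35% with any 1 of those with a mean of at least 1 FPKM. The part of the copies in the differences of these genes was not tested.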
